A study of Rattus norvegicus with 6 samples.

Results

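The genes described here are the 3 peroxisome proliferator-activated receptors (Ppara, Ppard and Pparg), the PGC-1 coactivators Ppargc1a and Ppargc1b, and genes of fatty acid uptake, storage and oxidation (Lpl, Fabp4, Cd36, Plin2 and Cpt1a). They were taken by gene symbol from the count table of vascular smooth muscle (VSM) cells. Of these 10 genes, 9 were found among the 14475 genes of the table, and Cd36, the fatty acid translocase, was not analysed here.

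PPARs are nuclear receptors that are activated by fatty acids and their derivatives. They pair with a retinoid X receptor, bind direct repeats of the hexamer AGGTCA near their target genes and recruit coactivators, among them the PGC-1 proteins, which also drive mitochondrial gene programs. In the vessel wall, PPARδ and PPARγ are known regulators of VSM growth, inflammation and lipid handling. Lipoprotein lipase releases fatty acids from circulating triglycerides, fatty acid binding proteins carry them inside the cell, perilipin 2 coats lipid droplets, and carnitine palmitoyltransferase 1A commits fatty acids to mitochondrial oxidation.

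VSM cells had been isolated from the soleus feed artery (SFA), which supplies the soleus muscle, of male rats. The young group comprised 3 rats aged 4 months and the old group 3 rats aged 24 months, and each group was grown in the same serum-containing medium before RNA was taken, so the values describe cultured cells and not the artery itself. One library of polyadenylated RNA was sequenced per sample. The labels do not tie libraries to single animals, so p-values measure the spread between these samples, part of which may be technical. The libraries held 44235674 to 59700887 counts on genes. Levels are given as CPM, counts scaled to a common TMM-normalized library size, which are not divided by transcript length and so are compared here only within a gene.

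Markers of smooth muscle were all found, and their summed level was lower in the old cultures. The 10 genes of that list summed to between 11263 and 21377 CPM in the young and between 3459 and 5576 CPM in the old libraries, with Acta2 and Myh11, which encode smooth muscle actin and myosin, below all young libraries in each old library. Fibroblast markers, 10 of 10 with a row, summed to between 2487 and 2637 CPM in young and between 3102 and 3738 CPM in old, with 7 of the 10 higher and 3 lower in old. The mean of Pdgfra was 234 CPM in young and 464 CPM in old. That of Col14a1 was 148 and 800 CPM, and that of Thy1 1269 and 1123 CPM. Col14a1 and Thy1 were not among the markers fixed in advance for naming. Markers of cells that use PPARγ or lipoprotein lipase heavily had few rows under their symbols. Rows were matched by symbol, and 1518 of the 14475 genes had none. All 14475 genes reach 10 counts in at least 3 libraries, so genes with fewer counts may also be without a row. A missing row therefore does not show missing RNA. Of 12 adipocyte markers 3 had a row, with Adipoq, Plin1 and Cidec not among them, and their sum was 8.17 to 19.1 CPM in young and 8.16 to 10.1 CPM in old. Of 12 macrophage markers 3 had a row, Ptprc not among them, with sums of 5.13 to 16.0 and 10.4 to 16.8 CPM and Csf1r between 0.285 and 2.48 CPM. Of 12 endothelial markers 6 had a row, Cdh5 not among them, with Pecam1 between 0.244 and 0.765 CPM and sums of 35.1 to 45.2 and 32.9 to 44.1 CPM. Skeletal muscle markers (5 of 10, without Myod1) summed to between 174 and 391 CPM in young and between 36.3 and 67.0 CPM in old. Schwann cell markers (4 of 7) summed to between 13.7 and 75.7 CPM in young and between 55.1 and 86.6 CPM in old. Pericyte markers (4 of 6) summed to between 904 and 1373 CPM in young and between 667 and 1520 CPM in old. Of these pericyte markers, 1 was higher and 3 were lower in old. The part that a shift in smooth muscle or fibroblast identity has in the values below was not tested, and in bulk RNA fewer cells of a type and less RNA per cell cannot be told apart.

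Mean Ppard and Lpl levels were higher and the mean Cpt1a level was lower in old VSM cells, while the means of Plin2, Ppara, Pparg, Ppargc1a, Ppargc1b and Fabp4 differed between the ages by less than the SD of the old group. None of the 9 genes passed both thresholds of the study (adjusted p under 0.05, log2 fold change of 1 or more in size) in edgeR's quasi-likelihood test. That test called 0.00691% of all genes, which is 1 gene. At an unadjusted p under 0.05, 3 of the 9 genes passed, against 22.6% of all genes. Of these 3, 2 were higher in old, against 11.2% of all genes, and 1 was lower, against 11.5%. The DESeq2 Wald test, the tool of the study, called 1 of the 9, Lpl, against 5.68% of the genes with an adjusted p. The groups did not overlap for 2 of the 9 genes, against 29.2% of all genes, and for 1 of the 9 the old libraries lay above the young, against 14.5%. The median log2 fold change of the 9 genes was 0.39 and that of all genes 0.02, while the median size of the log2 fold change, regardless of sign, was 0.39 and 0.26. With 3 libraries in each group, the smallest two-sided p of an exact permutation test is 0.1, so that test can call no gene. Ppard and Cpt1a reached this p, and the other genes lay above it.

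**Figure D1:**
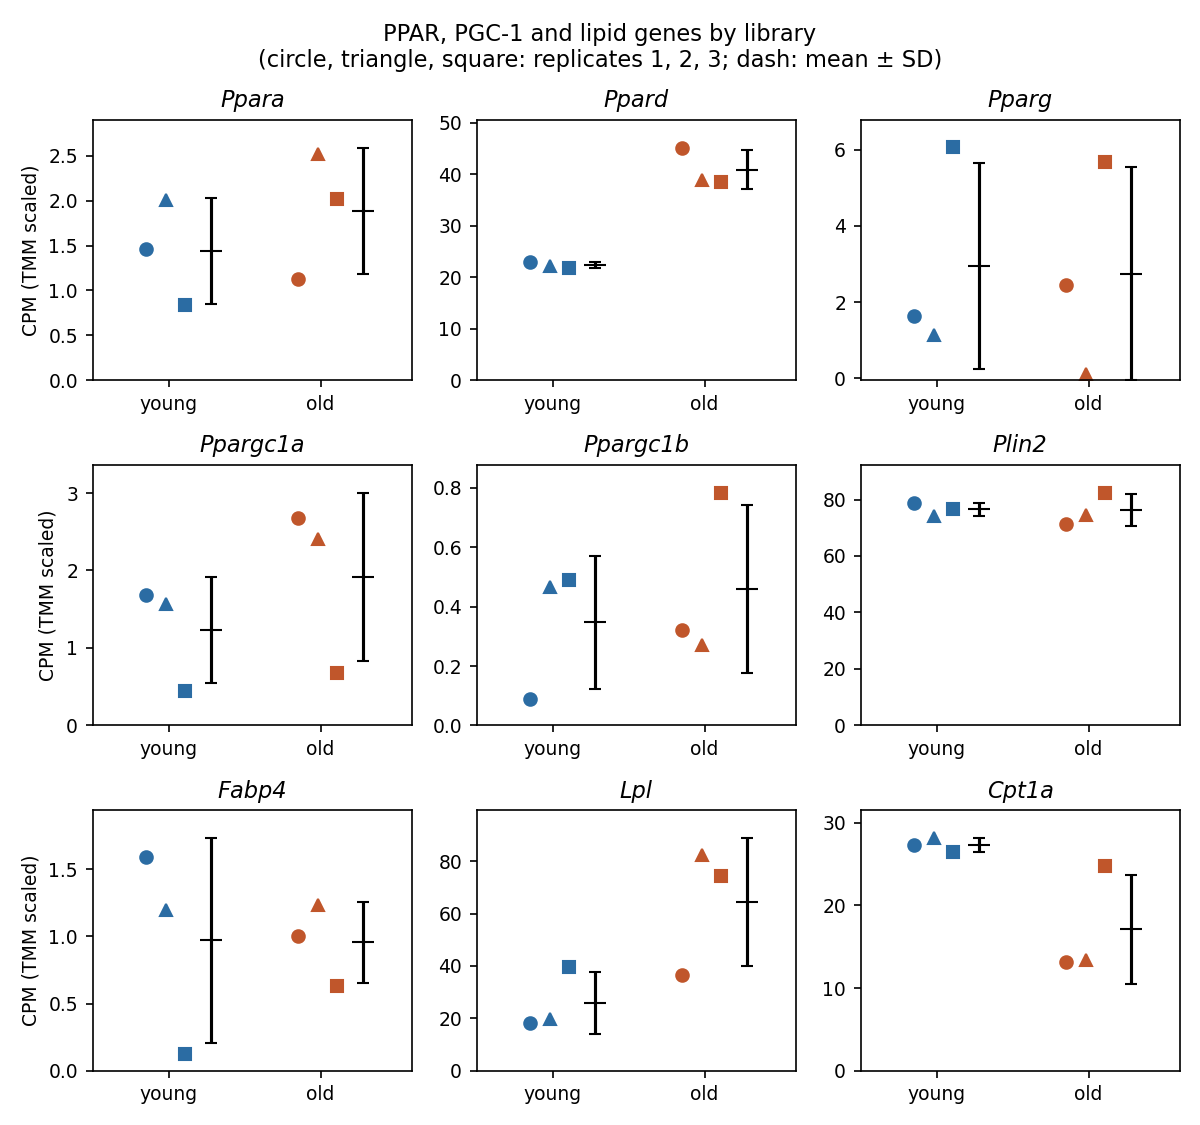
Level of each of the 9 genes in CPM (vertical axes start at 0, or just below where the error bar of Pparg reaches) in the 3 young (blue) and 3 old (orange) libraries, with the mean and SD of each group as a dash with a bar. The groups are apart for Ppard, with young libraries between 21.8 and 22.9 CPM and old libraries between 38.5 and 45.2 CPM, and for Cpt1a, and they overlap for the other 7 genes.

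Ppard encodes PPARδ, the most widely expressed of the 3 receptors. Its row (ENSRNOG00000000503) had 1035, 1338 and 1073 counts in the young and 2249, 2023 and 2061 counts in the old libraries. In CPM these were 22.9, 22.2 and 21.8 in young and 45.2, 38.9 and 38.5 in old. Every old library lay above every young library, and neither group varied much, with a coefficient of variation of 2.46% in young and 9.24% in old, where the median over 12257 genes with a mean of at least 1 CPM was 9.94% and 14.6%. The mean went from 22.3 ± 0.550 CPM (SD, n = 3) in young to 40.9 ± 3.77 CPM (SD, n = 3) in the old group, which is 1.83 times the young level. The log2 fold change of 0.87 (standard error 0.10, 95% interval 0.64 to 1.11) had an unadjusted p of 7.49e-05 and an adjusted p of 0.0531 in edgeR's quasi-likelihood test, outside the threshold on p and under the threshold on the fold. Ppard had the lowest p of the 9 genes. DESeq2 gave the same gene an adjusted p of 4.14e-10 with a log2 fold change of 0.86, which its fold threshold left uncalled. Without old replicate 1, its highest library, the log2 fold change was 0.79 and the adjusted p 0.0262 in edgeR, and with any other library left out the adjusted p lay between 0.0912 and 0.225.

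Ppara encodes PPARα, the receptor best known for switching on fatty acid oxidation in liver and heart. It had few reads (ENSRNOG00000021463), with 1.46, 2.01 and 0.835 CPM in young and 1.13, 2.52 and 2.02 CPM in old. Low and high libraries occurred in both groups, which overlapped. Its log2 fold change came to 0.39 (standard error 0.44, 95% interval -0.66 to 1.44, adjusted p = 0.607 from edgeR), an interval that holds both 0 and 1. It was 0.12 without young replicate 3 and 0.72 without young replicate 2.

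Pparg encodes PPARγ, the receptor that drives fat cell formation and is the target of the glitazone drugs. RefSeq lists 2 start sites for the rat gene, 57.7 kb apart on chromosome 4, and the count table has 1 row for both (ENSRNOG00000008839), so transcripts from either start were not separated. The windows around the starts, from 250 bases before to 50 bases from the start on, are shown because that single row would count transcripts from either. Which start these cells use was not tested. They are taken from RefSeq on build GRCr8 (for the counts the paper names Rnor 6.0), 5′ to 3′ on the plus strand, with the 50 bases from the start on in capitals. The upstream window, chr4:150096808-150097107, is 64.7% G and C, and the downstream window, chr4:150154522-150154821, is 43.7% G and C.
Pparg upstream start: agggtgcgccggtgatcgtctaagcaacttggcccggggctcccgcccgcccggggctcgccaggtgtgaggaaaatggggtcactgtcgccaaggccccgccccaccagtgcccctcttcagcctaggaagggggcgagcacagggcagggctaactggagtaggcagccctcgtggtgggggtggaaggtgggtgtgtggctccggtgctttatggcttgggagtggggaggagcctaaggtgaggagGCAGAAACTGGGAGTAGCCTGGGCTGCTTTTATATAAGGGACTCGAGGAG
Pparg downstream start: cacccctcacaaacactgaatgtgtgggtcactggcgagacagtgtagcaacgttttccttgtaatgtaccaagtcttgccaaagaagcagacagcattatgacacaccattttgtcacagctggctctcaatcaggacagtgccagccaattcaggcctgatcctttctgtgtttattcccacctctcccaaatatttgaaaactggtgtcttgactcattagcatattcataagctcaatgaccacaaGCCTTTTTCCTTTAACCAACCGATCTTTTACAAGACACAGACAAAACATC

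Pparg had the highest coefficient of variation of the 9 genes in each group (92.2% in young, 102% in old), and age did not order its libraries. It had 74, 68 and 298 counts in the young and 122, 6 and 304 counts in the old libraries, or 1.64, 1.13 and 6.07 CPM and 2.45, 0.115 and 5.67 CPM. The highest library of each group stood at about the same level, and old replicate 2 was near the lower end of detection, where 6 counts have an exact Poisson 95% interval of 2.20 to 13.1 counts. Such intervals take counts as independent and are too narrow if both mates of a pair were counted. Within the old group the highest library was 49.1 times the lowest, and within the young group 5.37 times. Group means of 2.95 ± 2.71 CPM for young and 2.75 ± 2.79 CPM for old (SD, n = 3 each) gave a log2 fold change of -0.10 (standard error 1.17, 95% interval -2.92 to 2.72, adjusted p = 0.967 from edgeR). Leaving out 1 library moved the log2 fold change between -1.20 (without old replicate 3) and 0.99 (without young replicate 3), so these 6 libraries give no direction for Pparg.

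The coactivator genes were low in every library. Ppargc1a (ENSRNOG00000004473), which encodes PGC-1α, the inducible coactivator of mitochondrial biogenesis, had 1.68, 1.56 and 0.448 CPM in young and 2.67, 2.40 and 0.672 CPM in old. In both groups replicate 3 was the lowest library, and the 2 other old libraries lay above all young libraries. Old over young, the log2 fold change came to 0.64 (with a standard error of 0.67, 95% interval -0.97 to 2.24, adjusted p = 0.583 from edgeR), and it moved to 0.24 without young replicate 3 and to 1.04 without old replicate 3. Ppargc1b (ENSRNOG00000017503), which encodes PGC-1β, had 4, 28 and 24 counts in young and 16, 14 and 42 counts in old, or 0.0886 to 0.488 CPM and 0.269 to 0.784 CPM. Its log2 fold change of 0.39 (standard error 0.70, 95% interval -1.31 to 2.08, adjusted p = 0.761 from edgeR) turned to -0.06 without young replicate 1, whose 4 counts have a Poisson interval of 1.09 to 10.2 counts, and to -0.25 without old replicate 3. For both coactivators the difference between the ages was within the spread between libraries.

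Lpl (ENSRNOG00000012181) encodes lipoprotein lipase, the enzyme that frees fatty acids from lipoproteins for uptake. Its counts were 820, 1182 and 1948 in young and 1811, 4273 and 3985 in old, which is 18.2, 19.6 and 39.6 CPM and 36.4, 82.2 and 74.4 CPM. Each group held libraries well apart from each other, and young replicate 3 lay above old replicate 1, so that the groups overlapped. The young mean of 25.8 ± 12.0 CPM and the old mean of 64.3 ± 24.5 CPM (SD, n = 3 each) differed, the old being 2.49 times the young level. In edgeR the log2 fold change was 1.32 (standard error 0.42, 95% interval 0.32 to 2.32) with an unadjusted p of 0.0176 and an adjusted p of 0.153. DESeq2 called the gene (log2 fold change 1.31, adjusted p = 0.0216). That call was lost without young replicate 1, young replicate 2, old replicate 2 or old replicate 3 (adjusted p = 0.142, 0.165, 0.166 and 0.133 from DESeq2) and kept without young replicate 3 or old replicate 1 (0.000315 and 0.000714), while the log2 fold change stayed above 1 in each. The summed fibroblast markers were also higher in old (2487 to 2637 against 3102 to 3738 CPM), and their part in the Lpl values was not tested.

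Fabp4 (ENSRNOG00000010805) encodes the fatty acid binding protein of adipocytes, macrophages and capillary endothelium. It had 72, 72 and 6 counts in young and 50, 64 and 34 counts in old, or 1.59, 1.20 and 0.122 CPM and 1.01, 1.23 and 0.634 CPM. As for Ppargc1a, replicate 3 was lowest in each group. The means of 0.971 ± 0.762 and 0.957 ± 0.301 CPM (SD, n = 3 each) gave a log2 fold change of -0.02 (standard error 0.79, 95% interval -1.93 to 1.89, adjusted p = 0.991 from edgeR), which was -0.54 without young replicate 3 and 0.52 without young replicate 1.

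**Figure D2:**
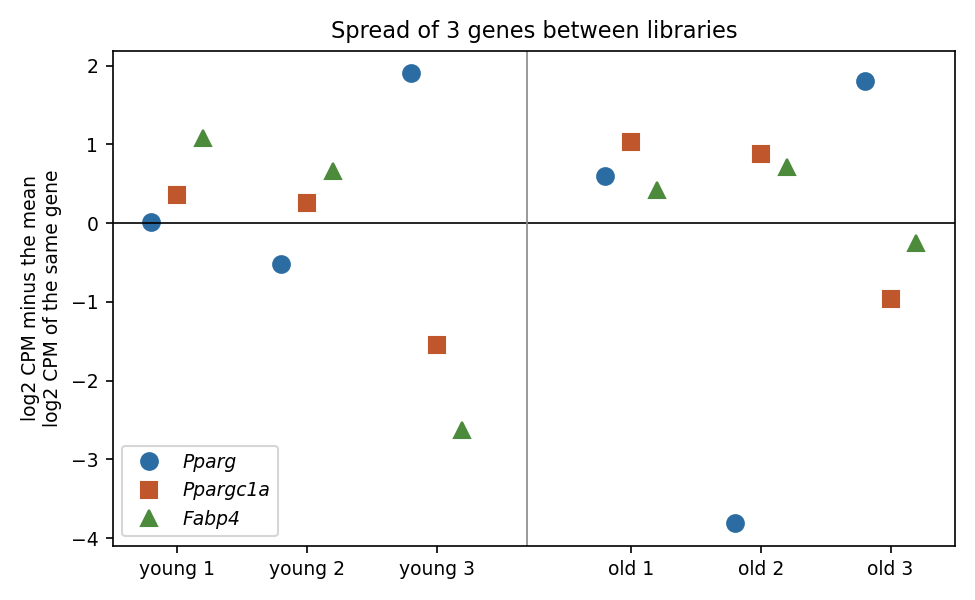
Level of Pparg, Ppargc1a and Fabp4 in each library as log2 CPM minus the mean log2 CPM of the same gene over the 6 libraries (vertical axis), with young libraries left and old libraries right of the line. In replicate 3 of each group Pparg was at its highest (6.07 and 5.67 CPM) while Ppargc1a (0.448 and 0.672 CPM) and Fabp4 (0.122 and 0.634 CPM) were at their lowest. The fact that both libraries carry the number 3 does not make them a pair. Pparg, Ppargc1a and Fabp4 were not fixed in advance for this figure.

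Plin2 (ENSRNOG00000007060) encodes perilipin 2, the lipid droplet coat protein of cells other than fat cells, and its mRNA is widely used as a sign of lipid loading. It had 78.9, 74.1 and 76.7 CPM in young and 71.4, 74.7 and 82.4 CPM in old. The libraries of both groups lay in one narrow range. Young cells averaged 76.6 ± 2.37 CPM and old cells 76.2 ± 5.62 CPM (SD, n = 3 each). In edgeR the log2 fold change was -0.01, with a standard error of 0.09 and an adjusted p of 0.967. The 95% interval from -0.22 to 0.21 leaves room only for small changes in either direction, and the sign itself changed with the library left out.

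Cpt1a (ENSRNOG00000014254) encodes the liver-type carnitine palmitoyltransferase, the entry step of long-chain fatty acids into mitochondria and a PPAR target in other tissues. It had 1231, 1693 and 1299 counts in young and 655, 695 and 1325 counts in old. The young libraries were close together at 27.3, 28.1 and 26.4 CPM, old replicates 1 and 2 stood at 13.2 and 13.4 CPM, and old replicate 3, at 24.7 CPM, was just under the lowest young library. Means were 27.3 ± 0.852 CPM for young and 17.1 ± 6.61 CPM for old (SD, n = 3 each). The log2 fold change was -0.67 (standard error 0.26, 95% interval -1.29 to -0.06, unadjusted p = 0.0370 and adjusted p = 0.199 from edgeR), and DESeq2 gave an adjusted p of 0.101. Old replicate 3 decided the size of this difference. Without it the log2 fold change was -1.04, with an adjusted p of 0.0835 in edgeR and 1.29e-19 in DESeq2, and with any other library left out it lay between -0.70 and -0.52.

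The window around the start of Cpt1a, the gene with the lower level in old, is shown as an example of the windows that were searched for the PPAR recognition hexamer. It lies on the plus strand at chr1:209995910-209996209 of GRCr8 (RefSeq), with the 50 bases from the start on in capitals.
Cpt1a start: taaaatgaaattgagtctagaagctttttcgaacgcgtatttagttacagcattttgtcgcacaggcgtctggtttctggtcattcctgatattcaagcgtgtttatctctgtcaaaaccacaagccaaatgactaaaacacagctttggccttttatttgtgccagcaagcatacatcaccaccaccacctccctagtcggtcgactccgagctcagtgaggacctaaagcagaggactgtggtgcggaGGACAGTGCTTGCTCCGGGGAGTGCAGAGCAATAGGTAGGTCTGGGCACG
RefSeq windows of this length were found for 6 of the 9 genes, 8 windows in all. Ppard, Lpl and Fabp4 had no such window and were not searched. Among Ppard, Lpl and Cpt1a, the search therefore covers only Cpt1a. The hexamer AGGTCA on either strand occurred in 0 of the 8, and so did its direct repeat with any 1 base between, against 16.2% and 0.0538% of 33469 windows of all genes. A missing match says only that these letters are not in this window.

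**Figure D3:**
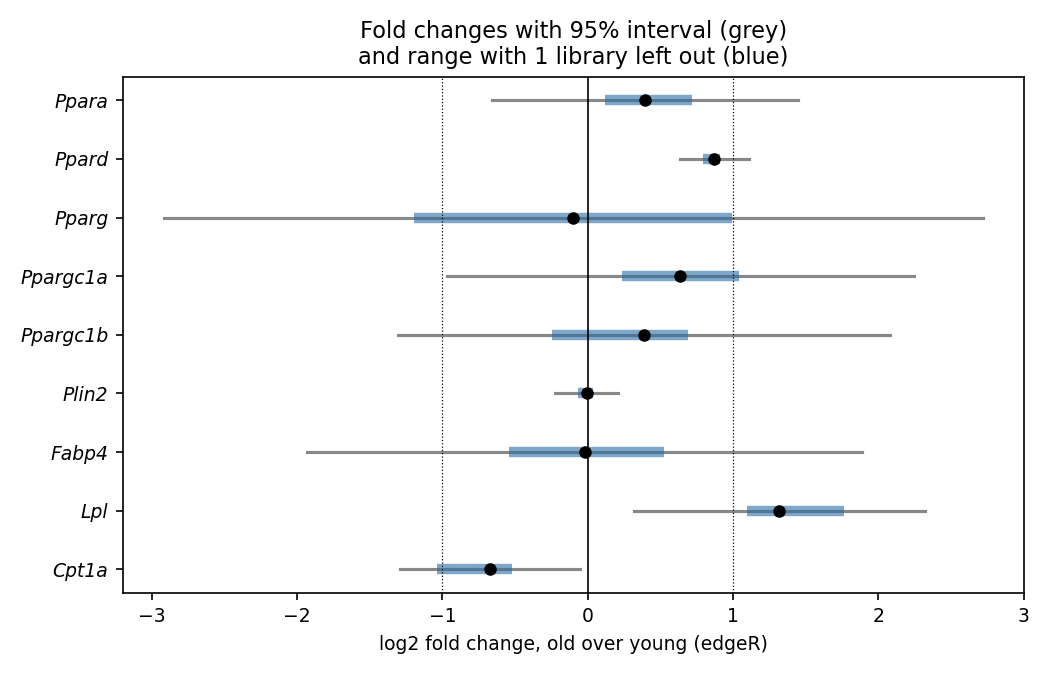
Log2 fold change of old over young VSM cells for the 9 genes (points), with the 95% interval from edgeR (grey line) and the range obtained with 1 library left out in turn (blue bar). The intervals of Ppard (0.64 to 1.11), Lpl (0.32 to 2.32) and Cpt1a (-1.29 to -0.06) do not include 0, that of Plin2 is narrow around 0, and that of Pparg runs from -2.92 to 2.72. Dotted lines mark the fold threshold of 1 on the log2 scale.

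Other genes of the pathway were taken from 6 lists with 127 different genes, of which 98 had a row. In edgeR 0 of the 98 were called. At an unadjusted p under 0.05, 17 of the 98 were higher and 12 lower in old, against 11.2% and 11.5% of all genes. DESeq2 called 5 as higher and 4 as lower, against 2.3% and 3.38% of the genes with an adjusted p. The old libraries lay above the young for 18 genes and below for 14, against 14.5% and 14.7% of all genes. The same shares of all genes apply to the counts of single lists given next, and lists share some genes. The median log2 fold change of the 98 genes was 0.07, with values from -2.87 to 2.89.

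Among 17 PPAR partners and coregulators, 5 were higher and 2 lower at an unadjusted p under 0.05, with a list median of 0.09. The log2 fold change of Ncoa1, the steroid receptor coactivator SRC-1, was 0.70 (adjusted p = 0.0743 from edgeR), from 21.4 CPM in young to 34.7 CPM in old. Tbl1xr1, a subunit of the corepressor complex that is exchanged when ligand binds, had 0.63 (adjusted p = 0.101). Prdm16, the cofactor of brown fat identity and a PGC-1α partner, had -1.35 (adjusted p = 0.0779), with 11.1, 14.8 and 20.4 CPM in young and 7.56, 5.87 and 4.80 CPM in old. The obligate partner Rxra, chosen after its values were seen, had a log2 fold change of 0.38 (adjusted p = 0.190). Among 10 PGC-1 partners in mitochondrial gene control, 0 were higher and 2 lower at an unadjusted p under 0.05, with a median of -0.06. Gabpb1, a subunit of the nuclear respiratory factor NRF-2, had -0.57 (adjusted p = 0.123), whereas its partner Gabpa had 0.11 (adjusted p = 0.605) and the mitochondrial transcription factor Tfb2m -0.09 (adjusted p = 0.627).

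PPAR target genes went both ways, with 4 of 20 higher and 4 lower at an unadjusted p under 0.05 and a median of -0.04. The largest log2 fold changes upward in the list were those of 2 desaturase genes. Scd, stearoyl-CoA desaturase, had 26.7, 20.9 and 20.4 CPM in young and 282, 124 and 99.3 CPM in old (log2 fold change 2.89, adjusted p = 0.0550 from edgeR), and Fads2, the delta-6 desaturase, had 1.51 (adjusted p = 0.0643). Both are also known targets of the sterol-regulated factor SREBP. Fabp3, the heart-type fatty acid binding protein, had 68.1, 92.6 and 99.7 CPM in young and 36.7, 21.4 and 37.7 CPM in old (log2 fold change -1.44, adjusted p = 0.0648 from edgeR). Olr1, the oxidized LDL receptor, had the largest log2 fold change downward in the list, -2.87 (adjusted p = 0.0930 from edgeR). Its mean was 255 CPM in young and 34.8 CPM in old. Olr1, as well as Pdk4 and Angptl4, 2 other targets of the list at low levels, were chosen after their values were seen. Cpt1a, the PPAR target described above with means of 27.3 CPM in young and 17.1 CPM in old, is not in this list. Pdk4, which restrains pyruvate oxidation, had 1.51, 0.964 and 1.22 CPM in young and 0.683, 0.385 and 1.23 CPM in old (log2 fold change -0.68, adjusted p = 0.407 from edgeR), and Angptl4, an inhibitor of lipoprotein lipase, spread from 0.149 to 5.81 CPM over the 6 libraries (log2 fold change -0.42, adjusted p = 0.879 from edgeR).

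Of 17 genes for fatty acid uptake, binding and activation, 2 were higher and 3 lower at an unadjusted p under 0.05, with a median of 0.08. Besides Fabp3, Acsl3, the acyl-CoA synthetase of lipid droplet formation, had 36.2, 30.0 and 39.0 CPM in young and 89.3, 53.0 and 82.3 CPM in old (log2 fold change 1.09, adjusted p = 0.0743 from edgeR), and the transporter family member Slc27a3 had 0.66 (adjusted p = 0.135). Of 19 genes of lipid droplets and triglyceride turnover, 3 were higher and 1 lower, with a median of 0.10. Lpin1, a phosphatidate phosphatase and PGC-1α coactivator, had 5.10, 5.90 and 4.29 CPM in young and 11.9, 9.91 and 18.8 CPM in old (log2 fold change 1.41, adjusted p = 0.0743 from edgeR), hormone-sensitive lipase Lipe had 0.78 (adjusted p = 0.143) and the droplet protein Cidea -1.22 (adjusted p = 0.134). Of 28 genes of fatty acid oxidation, 5 were higher and 1 lower, with a median of 0.14. Hadha, the trifunctional protein subunit, had a log2 fold change of 0.26 (adjusted p = 0.181), the peroxisomal oxidase Acox3 0.37 (adjusted p = 0.161) and Mlycd, which degrades the Cpt1 inhibitor malonyl-CoA, -0.57 (adjusted p = 0.103). The other carnitine steps, chosen after their values were seen, had 0.67 for Cpt1b, -0.10 for Cpt2 and 0.00 for Slc25a20 (adjusted p = 0.419, 0.638 and 0.987 from edgeR).

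**Figure D4:**
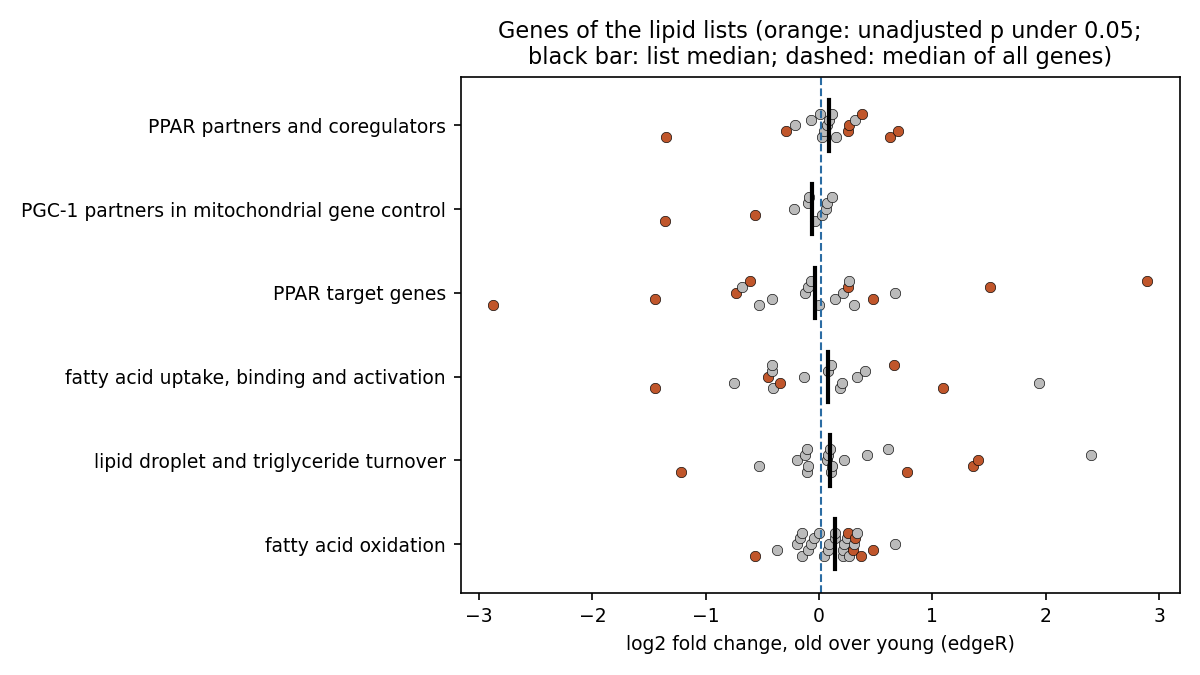
Log2 fold change of old over young (horizontal axis) for each gene of the 6 lipid lists, with orange points for an unadjusted p under 0.05, the list median as a black bar and the median of all genes, 0.02, as a dashed line. List medians lie between -0.06 and 0.14, and the outermost genes are Scd at 2.89 and Olr1, the oxidized LDL receptor, at -2.87.

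The genes whose levels followed Ppard most closely over the 6 libraries, by Pearson's r of log2(CPM + 1) among 12256 other genes with a mean of at least 1 CPM, were Fdft1 (r = 0.997), Acly (0.994), Islr (0.993), Emp2 (0.992) and Kifap3 (0.991). Fdft1 encodes squalene synthase of cholesterol synthesis, at 79.5, 82.1 and 79.6 CPM in young and 128, 116 and 115 CPM in old, and Acly encodes ATP citrate lyase, which supplies acetyl-CoA for lipid synthesis, at 192.6 CPM on average in young and 361 CPM in old. Means in young and old were 2.32 and 14.5 CPM for Islr, 17.0 and 25.7 CPM for Emp2, and 82.4 and 113 CPM for Kifap3. For Pparg the closest genes were Bzw1 (0.995), Fam81a (0.991), Gatad1 (0.989), Sfxn3 (0.984) and Fadd (0.983), and Bzw1 moved only between 230.2 and 291 CPM. Over so few points 98 genes had an r over 0.95 with Ppard and 30 with Pparg, and for Ppard the points fall into the 2 age groups, so that the values describe these libraries only.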

How the data were processed

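Stranded paired-end libraries were made from polyadenylated RNA of cultured SFA VSM cells (3 young, 3 old). The deposited values are raw gene counts with Ensembl gene identifiers, whereas the paper names a RefSeq annotation for the counting. Per the submitters' processing notes and methods, the authors trimmed reads with Trim Galore 0.6.7 and Cutadapt 3.5, aligned them to Rnor 6.0 with STAR and counted them with featureCounts of Subread 2.0.8, and all genes reach 10 counts in at least 3 libraries. For strand and mates, the counting options were not given in the sources used here. Each library held more counts than the reads per sample that the paper reports. Between 68.7% and 71.1% of counts from 1 to 19 were even. Whether both mates of a pair were counted was not tested. If they were, Poisson intervals, which cover counting error only, are too narrow. No column was left unused.

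The whole table was fitted in R 4.3.3 with edgeR 4.0.16 (TMM, quasi-likelihood F test, Benjamini-Hochberg over all 14475 genes, no covariates). Each standard error is the size of the log2 fold change over the square root of F. DESeq2 1.42.0, with independent filtering at 0.05, and limma-voom 3.58.1 were alternatives. The fits were tested on simulated data first. The genes and lists were chosen with earlier results of these data known. Besides the 9 genes, the text names the 3 genes with the lowest p in each list (mean of at least 1 CPM). It also names the 5 genes most correlated with Pparg and with the lowest-p gene. Fixed cell type markers were named too (smooth muscle, adipocyte, endothelial, macrophage, fibroblast, skeletal muscle, Schwann cell, pericyte). Col14a1, Thy1, Cidec, Rxra, Pdk4, Angptl4, Cpt1b, Cpt2, Slc25a20 and Olr1 were named outside these rules. Alternatives were a filter at 1 CPM, RLE or library size scaling, halved counts, a prior count of 2, other thresholds, the replicate number as a block and each library left out.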

Additional observations from a re-analysis of the deposited data

How the results depend on the processing

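Of the 9 genes, edgeR called 0 under each alternative and with each library left out. DESeq2 called 1 gene, Lpl, of 793 at default settings and of 805 with filtering at 0.05, an alternative chosen after seeing the data, as was DESeq2 with libraries left out, where it called 0 or 1 of the 9. With old replicate 3 left out the gene called was Cpt1a. Of the lipid list genes, DESeq2 called 9 under both settings and edgeR 7 at an adjusted p under 0.1, where 381 of all genes were called. limma-voom called 0 of all genes, with 3347 at an unadjusted p under 0.05. With a library left out, all genes called ranged from 0 (edgeR, for young replicate 3 and for old replicates 2 and 3) to 1377 (DESeq2 without old replicate 1), and lipid list genes called from 0 to 9. Without old replicate 1, edgeR called 732 genes and 5 lipid list genes.

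Ppara, Ppard, Ppargc1a, Lpl and Cpt1a kept their direction in all alternatives. With a library left out, the log2 fold change ranged from -1.21 to 0.99 for Pparg, -0.25 to 0.71 for Ppargc1b, -0.076 to 0.036 for Plin2 and -0.55 to 0.53 for Fabp4 over edgeR and DESeq2. Plin2 had 0.0062 with library size only, and Fabp4 had 0.53 with limma-voom and 0.39 with the replicate block. With the replicate block 1 gene of all was called, as without it. Same-numbered libraries deviated from their group means with correlations of 0.064, 0.31 and 0.29. Young replicates 1 and 2 both correlated best with old replicate 2. Over 3 libraries per group these correlations cannot decide whether the numbers mark pairs. The labels name no pairs, so the main fit had no block. The block lowered the standard error for Ppargc1a (0.67 to 0.26), Lpl (0.42 to 0.26) and Pparg (1.17 to 0.77) and raised it for Plin2 (0.090 to 0.101). With the block, the adjusted p from edgeR was 0.251 for Ppargc1a and 0.114 for Lpl. Pparg, Ppargc1b and Fabp4 had 4 to 6 counts in their lowest library, and what depth adds to their spread was not tested.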
